A study of Mus musculus with 2 samples.

Results

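*Hhip* or *Aspn* positive fibroblasts were the cells with at least 2 unique molecular identifiers (UMIs, each standing for 1 captured transcript) of *Hhip* and *Aspn* together. They also had at least 3 UMIs of *Col1a1*, *Col1a2* and *Pdgfra* together, and 0 UMIs of *Pi16*, *Cdh5*, *Pecam1*, *Epcam* and *Ptprc*. Of 19622 cells kept, 634 met this rule, 150 of 9634 in library 1 and 484 of 9988 in library 2. The lungs were those of male mice (C57BL/6, wild-type, 3 months of age), and the cells had been sorted live for the fluorescence of stored retinoid (UV-positive). There were 2 libraries of this 1 condition, and the number of mice behind each was not stated. The positive cells were compared in each library with fibroblasts that passed the same gate with 0 UMIs of *Hhip* and *Aspn*. Of these, the Dcn-high fibroblasts had at least 5 UMIs of *Dcn* (489 and 476 cells in libraries 1 and 2), and the Dcn-zero fibroblasts had none (5170 and 4653 cells). The 3 groups did not share cells, and the libraries shared 23 barcodes, 0 of them between positive cells, while 3 positive cells had a barcode that the other library also held.

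*Hhip* encodes a membrane protein that binds hedgehog ligands and dampens the pathway, and it is itself switched on by hedgehog signalling, as are *Ptch1*, the ligand's receptor, and the transcription factor *Gli1*. *Aspn* encodes asporin, a small leucine-rich proteoglycan of the matrix that can bind collagen and TGF-beta. In the lung, such transcripts are known from fibroblasts along alveolar ducts and airways, some of which carry contractile proteins, whereas alveolar fibroblasts hold lipid and retinoid and adventitial fibroblasts make the collagen-rich sleeve around vessels and bronchi.

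The positive cells made up 1.56% (95% interval 1.32 to 1.82%) of the cells kept in library 1 and 4.85% (4.43 to 5.29%) in library 2. Of all cells passing the fibroblast gate they were 2.12% and 6.81%. The share was higher in library 2, which was also the deeper one, with a median of 7577.5 UMIs per cell against 4480.0, and the part of depth in the share was not tested. The positive cells themselves had medians of 6098.5 and 9697.0 UMIs, the Dcn-high fibroblasts 5928.0 and 10456.0, and the Dcn-zero fibroblasts 4034.0 and 6402.0. The positive cells were thus near the Dcn-high fibroblasts in depth and above the Dcn-zero fibroblasts. No UMI of *Hhip* or *Aspn* was found in 55 and 327 endothelial, 128 and 233 immune, or 538 and 113 epithelial barcodes without fibroblast transcripts. These barcodes were chosen for lacking fibroblast transcripts, so they cannot show whether such transcripts spread between cells. The endothelial ones (medians of 2138.0 and 4220.0 UMIs) and the immune ones (3418.0 and 5213.0 UMIs) were also shallower than the positive cells.

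Most positive cells were chosen by *Hhip*. In library 1, 98 of 150 had *Hhip* and no *Aspn*, 20 had *Aspn* and no *Hhip*, and 32 had both. In library 2 these numbers were 302, 89 and 93 of 484. In CPM, a gene's UMIs scaled to a common total of 10 to the power 6, *Hhip* stood at 335 and 206 in the summed positive cells of libraries 1 and 2 and *Aspn* at 107 and 104 CPM, as values of the rule and not results. The other genes of the rule, also given without a test, were *Col1a1* at 1120.3 and 1054 CPM, *Col1a2* at 1689 and 1851 CPM, *Pdgfra*, the receptor gene that marks most lung fibroblasts, at 515 and 934 CPM and *Dcn*, which encodes decorin, at 1887 and 502 CPM. The positive cells were mixed in *Dcn*: 38.0% and 52.3% had none and 41.3% and 20.7% had 5 or more UMIs. Among gate cells without *Hhip* and *Aspn*, 79.3% and 78.3% had none and 7.498% and 8.01% had 5 or more. The positive cells therefore spanned both of the groups they were compared with, in proportions that differed between the libraries.

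Around the threshold of 2 UMIs the levels of *Ptch1* and *Rbp4* went in steps, with no break at the threshold. In library 1, *Ptch1* was at 71.9 CPM in the 6522 gate cells with 0 UMIs of *Hhip* and *Aspn*, 184 CPM in the 393 cells with 1 UMI, just outside the rule, and 322 CPM in the 96 cells with 2 UMIs, just inside. In library 2 it was at 55.7, 71.5 and 98.2 CPM in 5944, 681 and 258 cells. *Rbp4*, the gene of the retinol carrier of plasma, stood in library 1 at 507 CPM just outside and 1037 CPM just inside. The same steps in library 2 were 132 and 259 CPM. For these 2 genes the cells with 1 UMI lay between those with 0 and those with 2, and the cells with 4 or more (29 and 130) reached 2158 and 707 CPM of *Rbp4*. Other genes did not all follow this order, and *Acta2*, the gene of smooth muscle actin, was at 69.3, 89.2 and 72.1 CPM at 0, 1 and 2 UMIs in library 2. *Npnt*, an alveolar fibroblast gene of the basement membrane, went the other way, from 1812 and 2291 CPM at 0 UMIs to 504 and 1729.6 CPM at 4 or more. *Dcn* also rose, in library 1 from 323 CPM at 0 UMIs to 2557 CPM at 4 or more. In library 2 it was at 300, 463 and 518 CPM at 0, 1 and 4 or more UMIs. The part of *Dcn* in these steps was not tested.

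**Figure D1:**
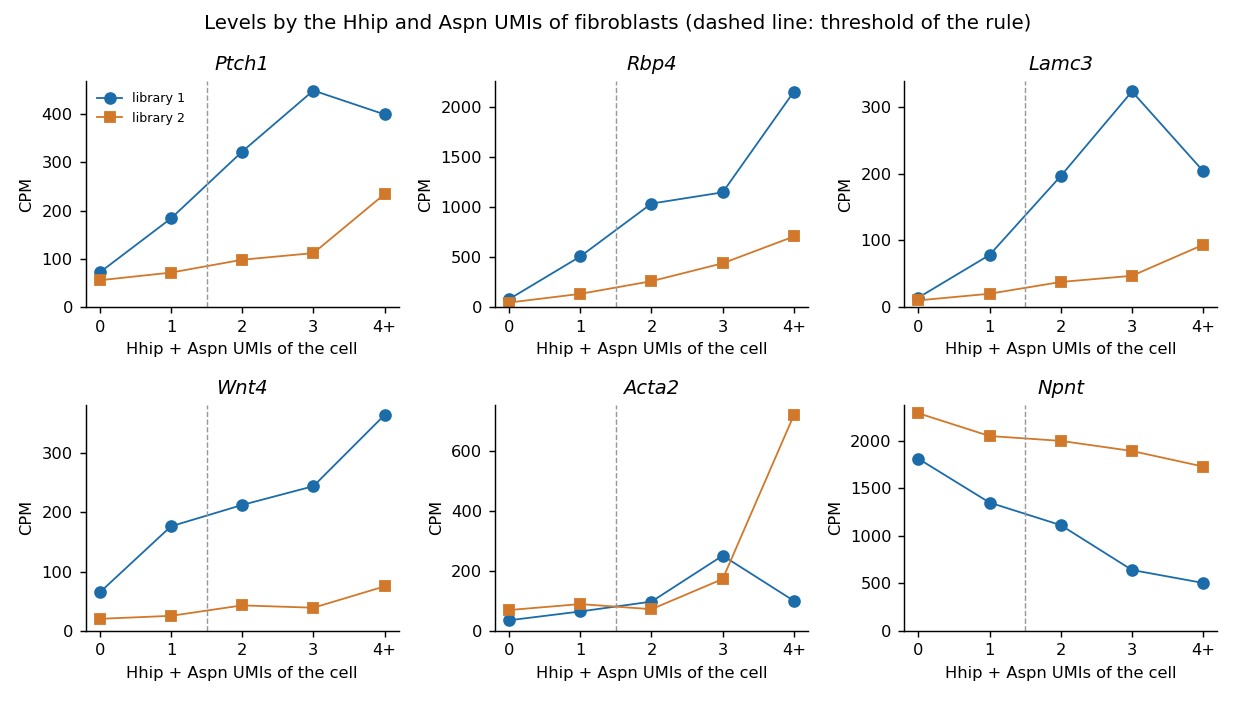
Summed levels (CPM, vertical axes) of 6 genes in fibroblasts grouped by their UMIs of *Hhip* and *Aspn* together (horizontal axes), with 1 line per library and a dashed line at the threshold. In library 1, *Ptch1* went from 71.9 CPM at 0 UMIs to 322 CPM at 2, and in library 2 from 55.7 to 98.2 CPM.

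The promoters of the rule's 2 genes and of the *Ptch1* and *Rbp4* genes are shown because these genes carried the comparisons that follow. Of 7 genes looked up among RefSeq promoters (GRCm38.p6, 250 bases before to 50 after the start), 4 matched, and *Gli1*, *Foxf1* and *Lamc3* were missing. *Hhip* lies on chromosome 8 (chr8:79965851-80058006, minus strand) and *Aspn* on chromosome 13 (chr13:49544443-49567565, plus strand), in GRCm38. The searches covered both strands for the GLI core GGGTGGTC (GACCACCC on the other strand), held by 0.807% of 32851 promoters, the GC box GGGCGG or CCGCCC (35.7%) and the TATA box TATAAA or TTTATA (13.6%). Capitals mark these matches. The *Hhip* window (chr8:80057959-80058258, minus strand) was 73.7% G and C with 2 GC boxes. The *Aspn* window (chr13:49544193-49544492, plus strand) was 31.0% G and C with 2 TATA boxes, 207 and 178 bases before the start. The *Ptch1* window (chr13:63565686-63565985, minus strand) was 76.3% G and C with 1 GC box. It lies inside the span listed for the gene (chr13:63508328-63573598), and not at the outer end of that span. The median over all promoters was 52.7%. *Rbp4* had 2 listed starts. The upstream window (chr19:38125272-38125571, minus strand, 40.7% G and C) held no match. The downstream window (chr19:38124762-38125061, minus strand, 72.0%) held 1 GLI core 221 bases before the start, 2 GC boxes and 1 TATA box 28 bases before it. The GLI core was not found in the *Hhip*, *Aspn* and *Ptch1* windows. A match describes the letters in the window and nothing about a bound factor.
Hhip promoter: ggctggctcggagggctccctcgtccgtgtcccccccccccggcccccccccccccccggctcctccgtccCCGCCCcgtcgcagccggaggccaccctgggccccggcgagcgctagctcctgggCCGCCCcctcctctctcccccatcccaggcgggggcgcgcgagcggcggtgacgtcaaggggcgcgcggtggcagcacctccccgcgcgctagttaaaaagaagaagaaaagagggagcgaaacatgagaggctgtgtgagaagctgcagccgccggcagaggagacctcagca
Aspn promoter: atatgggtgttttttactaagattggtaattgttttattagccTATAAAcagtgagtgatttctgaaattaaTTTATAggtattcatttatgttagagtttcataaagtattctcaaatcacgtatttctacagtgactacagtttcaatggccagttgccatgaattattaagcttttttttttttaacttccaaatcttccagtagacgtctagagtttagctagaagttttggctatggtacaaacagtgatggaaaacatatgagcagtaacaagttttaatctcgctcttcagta
Ptch1 promoter: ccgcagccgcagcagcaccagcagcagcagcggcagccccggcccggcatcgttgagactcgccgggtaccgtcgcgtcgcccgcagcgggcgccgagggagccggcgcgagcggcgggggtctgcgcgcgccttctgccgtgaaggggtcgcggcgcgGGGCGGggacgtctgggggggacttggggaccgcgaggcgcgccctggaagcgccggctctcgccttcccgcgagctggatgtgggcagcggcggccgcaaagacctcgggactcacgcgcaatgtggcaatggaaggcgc
Rbp4 promoter, upstream start: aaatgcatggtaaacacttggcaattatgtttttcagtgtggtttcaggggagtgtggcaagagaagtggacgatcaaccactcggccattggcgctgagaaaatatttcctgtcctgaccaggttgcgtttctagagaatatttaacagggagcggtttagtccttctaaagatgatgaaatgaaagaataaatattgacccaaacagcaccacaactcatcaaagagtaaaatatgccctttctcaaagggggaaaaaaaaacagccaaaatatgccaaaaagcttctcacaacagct
Rbp4 promoter, downstream start: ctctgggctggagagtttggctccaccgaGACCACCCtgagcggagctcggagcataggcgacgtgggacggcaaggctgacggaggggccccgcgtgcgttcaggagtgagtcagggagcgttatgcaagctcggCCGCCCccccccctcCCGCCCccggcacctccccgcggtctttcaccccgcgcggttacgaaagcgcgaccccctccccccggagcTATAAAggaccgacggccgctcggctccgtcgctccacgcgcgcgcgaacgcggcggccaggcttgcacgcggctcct

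Over all genes, 11855 were tested in the main comparisons. In positive cells, 140 (1.18%) were higher and 148 (1.25%) lower than in Dcn-high fibroblasts at an adjusted p under 0.05. Against Dcn-zero fibroblasts, 751 (6.33%) were higher and 480 (4.05%) lower. The counts of called genes in the lists below stand beside these shares, and the list medians beside 0.00 and -0.02 over all genes tested. Both comparisons used the same sums of positive cells, so their values are set side by side and not as separate support. Fewer genes separated the positive cells from the Dcn-high than from the Dcn-zero fibroblasts, whose cells were also shallower and more numerous. The counts depended on the pairing of groups within libraries. Without the library as a block, edgeR called 0 genes in both comparisons, with 236 and 723 genes at an unadjusted p under 0.05, and DESeq2 with the block called 148 and 731. With the block, the p-values measure how unevenly the differences between groups ran in these 2 libraries only, estimated over all 3 groups. The spread of levels between the libraries is taken out by the block. Log2 ratios of 1 library alone, given without a test, were taken after adding 1 CPM to both levels, which draws them toward 0 where a level is low.

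Of the markers given for these cells, *Acta2*, *Htra1* and *Pdgfrb* were independent of the rule. *Acta2*, which encodes smooth muscle actin, was at 123 and 289.8 CPM in the positive cells of libraries 1 and 2, 60.8 and 56.3 CPM in Dcn-high and 29.96 and 71.0 CPM in Dcn-zero fibroblasts. In both libraries it was higher in the positive cells than in either group. It passed the test against the Dcn-high (log2 fold change 1.77, SE 0.22, adjusted p = 4.27e-05) and the Dcn-zero fibroblasts (2.08, SE 0.19, adjusted p = 1.63e-07). The first of these differences came to 0.9998 and 2.34 on the log2 scale in library 1 alone and library 2 alone. *Htra1*, a secreted protease, was at 151 and 69.0 CPM in the positive cells, 192 and 126 CPM in Dcn-high and 72.0 and 39.6 CPM in Dcn-zero fibroblasts. It was lower than in the Dcn-high (-0.68, adjusted p = 0.00183, -0.34 in library 1 alone) and higher than in the Dcn-zero fibroblasts (0.91, adjusted p = 1.30e-05). *Pdgfrb*, a receptor of pericytes and some fibroblasts, was at 49.7 and 31.3 CPM in positive, 43.1 and 45.7 CPM in Dcn-high and 19.0 and 19.1 CPM in Dcn-zero cells. It passed the test against the Dcn-zero group (0.93, adjusted p = 6.70e-04) and not against the Dcn-high group (-0.34, adjusted p = 0.522). Both calls against the Dcn-zero group were lost when only cells with 0 *Dcn* UMIs were compared (0.50 and 0.62, adjusted p = 0.0923 and 0.237). Of 8 alternatives that kept the library as a block, the other 7 kept both. Against Dcn-high fibroblasts, the lower call of *Htra1* was lost in 3 of 8. The log2 ratio of *Pdgfrb* to that group was 0.20 and -0.53 in library 1 alone and library 2 alone. Neither gene was thus called higher than in Dcn-high fibroblasts, and these 2 did not set the positive cells apart from that group. The cells are therefore named here by the genes of their rule. Of 14 genes known from ductal and peribronchial fibroblasts, 11 were tested. Against the Dcn-high group *Acta2* was higher and *Htra1* and *Fgf18* were lower (median -0.36 beside 0.00 over all genes tested). Against the Dcn-zero group 8 were higher and 0 lower (median 1.33 beside -0.02). Among cells matched for *Dcn*, 3 of the 8 higher calls were kept (*Acta2*, *Wnt5a* and *Enpp2*), and *Htra1*, *Pdgfrb*, *Tgfbi*, *Crip1* and *Cdh4* were lost. None of the 3 calls against the Dcn-high group was kept. DESeq2 kept 7 of the 8 and 1 of the 3.

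Most positive cells had no *Acta2* UMI. To compare at 1 depth, cells with at least 3000 UMIs were thinned to that number. Shallower cells were left out, which were 6 and 3 positive, 24 and 2 Dcn-high and 1278 and 162 Dcn-zero cells. Of the thinned cells, 13.2% and 15.2% of the positive cells of libraries 1 and 2 had an *Acta2* UMI (24.0% and 31.0% before thinning), against 11.4% and 10.1% of Dcn-high (19.0% and 22.1% before) and 5.73% and 7.68% of Dcn-zero fibroblasts (7.29% and 13.5% before). In endothelial barcodes without fibroblast transcripts, 0 of 15 and 0 of 232 thinned ones had an *Acta2* UMI. Another 40 and 95 such barcodes were shallower, and the median depth of all 55 and 327 was 2138.0 and 4220.0 UMIs, against 6098.5 and 9697.0 in all positive cells. The transcripts were concentrated in library 2. There, 6 of 484 positive cells with at least 2 UMIs of the smooth muscle genes *Myh11*, *Cnn1*, *Actg2* and *Actc1* held 64.7% of the positive cells' *Acta2* UMIs, and *Acta2* was at 103 CPM without them. Of these 6 cells, 5 were among the 89 with *Aspn* alone and 1 among the 302 with *Hhip* alone, and library 1 had 0 such cells of 150. With every cell that held a UMI of *Myh11*, *Cnn1*, *Rgs5*, *Cspg4* or *Notch3* left out of all groups, *Acta2* still passed the test against the Dcn-high (0.76, adjusted p = 0.0234) and the Dcn-zero fibroblasts (1.497, adjusted p = 2.16e-06). *Acta2* against the Dcn-high group was not past the threshold with DESeq2 in place of edgeR, nor when only positive cells with 5 or more *Dcn* UMIs were compared (1.05, adjusted p = 0.343).

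Of 18 contractile genes, 14 were tested against both groups. Against the Dcn-high fibroblasts 6 were higher (*Acta2*, *Tagln*, *Myh11*, *Des*, *Lmod1* and *Actc1*) and 0 lower, with a median log2 fold change of 0.79 beside 0.00 over all genes tested. Of the 6, *Myh11* and *Actc1* had 0 UMIs in the Dcn-high fibroblasts. Their calls compare with a count of 0 and are not read as support, though the count of 6 and the median include them. Against the Dcn-zero fibroblasts 8 were higher and 1 lower (median 0.82 beside -0.02). Matched for *Dcn*, 0 of the 6 calls against the Dcn-high and 7 of the 8 higher calls against the Dcn-zero group were kept (*Actc1* was not tested there). DESeq2 kept 0 of the 6 and 5 of the 8. Without cells holding *Myh11*, *Cnn1*, *Rgs5*, *Cspg4* or *Notch3*, 2 of the 6 (*Acta2* and *Tagln*) and 4 of the 8 (*Acta2*, *Myl9*, *Tpm1* and *Tpm2*) were kept, with 3 of each number not tested. Part of these calls thus rested on few cells. The loss of *Myh11* was fixed by the filter, which removes every cell that holds it. Without the cells holding those 5 genes, *Des*, which encodes the filament protein desmin, was not past the threshold against the Dcn-high group (0.70, adjusted p = 0.115; 1.33 with them, 0.01 and 1.83 in library 1 alone and library 2 alone). Against the Dcn-zero group it was then lower (-1.07, adjusted p = 2.11e-04; -0.48, adjusted p = 0.14 with them). *Actc1*, a cardiac actin, had 1 UMI in the positive cells of library 1, 67.5% of its library 2 UMIs in 1 cell and 0 UMIs in Dcn-high fibroblasts, and was not tested without those cells. The gene lower than in the Dcn-zero group was *Tagln*, an actin-binding protein, at 115 and 376 CPM in the positive cells, 72.3 and 76.1 CPM in Dcn-high and 633 and 609 CPM in Dcn-zero fibroblasts (-1.31, adjusted p = 2.27e-04, -2.45 in library 1 alone and -0.69 in library 2 alone; against Dcn-high 1.74, adjusted p = 1.67e-04, 0.66 in library 1 alone). The level of *Tagln* lay between the 2 groups in both libraries, and the 6 cells named above held 40.5% of its UMIs in library 2. Matched for *Dcn*, neither difference was past the threshold (against Dcn-high 0.08, adjusted p = 0.99; against Dcn-zero -0.42, adjusted p = 0.363). Neither was past it with DESeq2, and that from the Dcn-zero group was also lost at 3 UMIs of *Hhip* and *Aspn* and in cells with 5000 to 15000 UMIs. *Myl9*, a myosin light chain, was at 58.1 and 83.3 CPM against 14.9 and 24.9 CPM in Dcn-zero fibroblasts (1.88, adjusted p = 1.62e-06). *Tpm2*, a tropomyosin, was at 104 and 184 against 55.6 and 90.6 CPM (1.005, adjusted p = 2.43e-06). Both were higher in the positive cells of each library. *Myh11*, the smooth muscle myosin, had 0 and 46.9 CPM in the positive cells and 0 in the Dcn-high fibroblasts of both libraries. The 6 cells named above held 99.2% of its UMIs in library 2, and it was at 0.381 CPM without them. Both values were largely set by the choice of these cells. A positive cell with 2 or more *Myh11* UMIs was by definition among them. After thinning, 0% and 1.46% of positive cells had a *Myh11* UMI. So did 1 of 15 and 4 of 232 endothelial barcodes without fibroblast transcripts (6.67% and 1.72%). The summed contractile genes reached 1719.6 and 2861 CPM in positive cells, 1516 and 1819 in Dcn-high and 2070.3 and 2489.6 in Dcn-zero fibroblasts, with *Cald1*, an actin-binding gene of many cell types, the most abundant.

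Hedgehog genes, listed apart from *Hhip*, were called in both directions. Of 17, 13 were tested, and 7 were higher and 2, *Disp1* and *Foxf2*, lower than in Dcn-zero fibroblasts (median 0.60 beside -0.02 over all genes). Matched for *Dcn*, 3 of these 7 higher calls and 0 of the 2 lower calls were kept. Against Dcn-high fibroblasts *Ptch1* was higher and *Gas1* lower (median 0.20 beside 0.00). The ligand genes *Shh*, *Ihh* and *Dhh* had 0 UMIs in the positive cells. *Ptch1* was at 361 and 143 CPM in the positive cells of libraries 1 and 2, 114 and 65.3 CPM in Dcn-high and 66.4 and 55.2 CPM in Dcn-zero fibroblasts. The positive cells were the highest of the 3 groups in each library, at 3.16 and 2.18 times the Dcn-high level, and the difference was larger in library 1. On the log2 scale the difference was 1.33, SE 0.18, adjusted p = 9.81e-05, against 1.87, SE 0.16, adjusted p = 7.82e-08 for the Dcn-zero group. It was past the threshold in 8 of 8 tested alternatives that kept the library as a block (0.81 to 1.71). Within positive cells with 5 or more *Dcn* UMIs it was 1.71 (adjusted p = 1.80e-05).

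After thinning to 3000 UMIs, 52.8% and 25.8% of positive cells had a *Ptch1* UMI (68.0% and 53.1% before), against 23.9% and 16.2% of Dcn-high (37.2% and 41.8% before) and 16.8% and 15.0% of Dcn-zero fibroblasts (22.2% and 29.5% before). Of thinned endothelial barcodes without fibroblast transcripts, 2 of 15 and 24 of 232 had one (13.3% and 10.3%), and how many of these UMIs came from the liquid between cells was not measured. *Gli1*, the transcription factor whose level follows hedgehog activity, was at 28.5 and 19.2 CPM in positive cells, 12.8 and 11.4 CPM in Dcn-high and 2.73 and 3.70 CPM in Dcn-zero fibroblasts. It passed the test against the Dcn-zero (2.73, SE 0.26, adjusted p = 2.41e-07) and not against the Dcn-high group (0.81, adjusted p = 0.163), although both libraries were higher. *Foxf1*, a forkhead factor of lung mesenchyme, was at 107 and 48.8 CPM in positive, 48.0 and 45.5 CPM in Dcn-high and 15.3 and 18.8 CPM in Dcn-zero cells and passed against the Dcn-zero group only (1.96, adjusted p = 1.78e-06; against Dcn-high 0.47, adjusted p = 0.46). The co-receptor gene *Gas1* took the middle, at 179.7 and 244 CPM against 339.9 and 343 in Dcn-high (-0.70, adjusted p = 8.01e-04) and 145 and 143 in Dcn-zero fibroblasts (0.60, adjusted p = 7.06e-04, 0.31 in library 1 alone). *Boc*, another co-receptor, was at 93.0 and 106 against 47.1 and 76.1 CPM in Dcn-zero fibroblasts (0.65, adjusted p = 9.52e-04). Matched for *Dcn*, 3 of the 7 higher calls against the Dcn-zero group were kept (*Ptch1*, *Gli1* and *Foxf1*) and 0 of the 2 lower ones. DESeq2 kept all 7 and neither of the 2. *Boc* (0.46, adjusted p = 0.124) and *Gas1* (0.41, adjusted p = 0.18; against Dcn-high -0.45, adjusted p = 0.218) were not past the threshold when matched for *Dcn*.

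**Figure D2:**
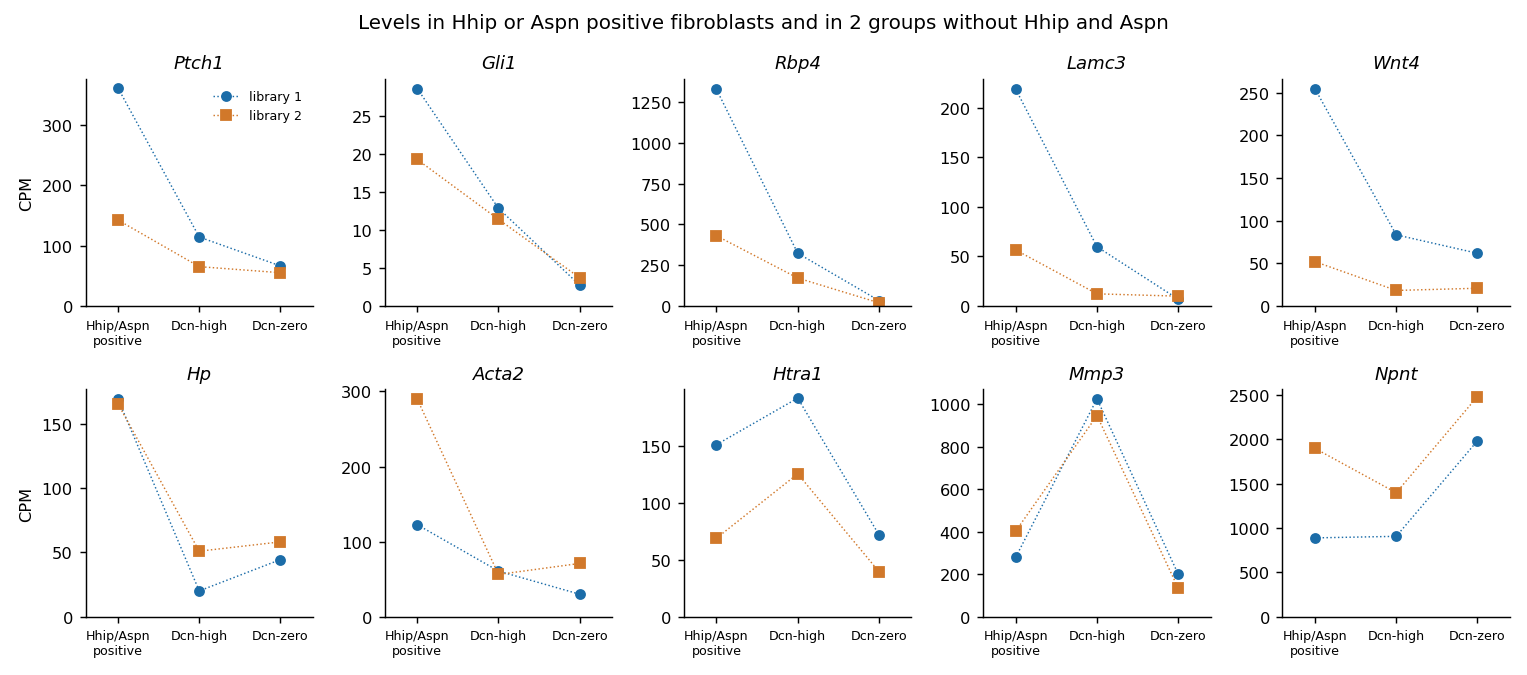
Summed levels (CPM, vertical axes) of 10 genes in the *Hhip* or *Aspn* positive fibroblasts and the 2 groups without these transcripts (horizontal axes), with 1 point per library and group joined by dotted lines. *Ptch1*, *Rbp4*, *Lamc3*, *Wnt4*, *Hp* and *Acta2* were highest in the positive cells of both libraries, whereas *Htra1* and *Mmp3* were highest in Dcn-high and *Npnt* in Dcn-zero fibroblasts.

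The 10 genes with the largest rise over the Dcn-high fibroblasts, among those at 50 CPM or more in both libraries, were *Sftpc*, *Hp*, *Lamc3*, *Acta2*, *Tagln*, *Rbp4*, *Lyz2*, *Wnt4*, *Ptch1* and *Smim41*. *Rbp4* was at 1328 and 430.4 CPM in the positive cells, 323 and 172 CPM in Dcn-high and 33.5 and 19.8 CPM in Dcn-zero fibroblasts. This was 4.10 and 2.51 times the Dcn-high and 39.7 and 21.8 times the Dcn-zero level of libraries 1 and 2. It was past the threshold against both groups (1.65, SE 0.15, adjusted p = 1.12e-06, and 4.89, SE 0.17, adjusted p = 5.53e-14) and in all 8 tested alternatives that kept the block. After thinning, 57.6% and 31.8% of positive cells had an *Rbp4* UMI (62.7% and 42.6% before), against 32.0% and 27.2% of Dcn-high (41.5% and 45.2% before), 3.24% and 2.47% of Dcn-zero fibroblasts (3.87% and 4.08% before) and 0 of 15 and 0 of 232 endothelial barcodes. Before thinning, the share in library 2 was thus higher in Dcn-high than in positive cells. The level of *Rbp4*, like that of *Ptch1*, was higher in library 1.

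*Wnt4*, which encodes a secreted Wnt ligand, was at 255 and 52.0 CPM in the positive cells, 83.5 and 18.3 CPM in Dcn-high and 61.9 and 20.9 CPM in Dcn-zero fibroblasts. The levels of the libraries lay far apart, yet the positive cells were highest in each (1.48, adjusted p = 1.37e-05; against Dcn-zero 1.69, adjusted p = 7.54e-08). The first difference was past the threshold in 8 of 8 alternatives with the block. *Lamc3*, a laminin chain of basement membranes, was at 219 and 56.6 CPM in positive, 59.8 and 12.3 CPM in Dcn-high and 6.90 and 9.97 CPM in Dcn-zero cells (1.83, adjusted p = 0.0108; 3.56, adjusted p = 9.38e-07). Its difference from the Dcn-high group was past the threshold in 4 of 8 alternatives with the block, and not with DESeq2. *Adh7*, a retinol-oxidising alcohol dehydrogenase, was at 159.6 and 20.4 CPM in the positive cells, 30.9 and 7.83 CPM in Dcn-high and 0.602 and 0.443 CPM in Dcn-zero fibroblasts. It was past the threshold against both (1.90, adjusted p = 2.29e-04; 7.01, adjusted p = 2.37e-11), but not with DESeq2 against the Dcn-high group. Its log2 ratio to the Dcn-zero group, with the added 1 CPM larger than the Dcn-zero levels, was 6.65 and 3.89 in library 1 alone and library 2 alone. *Hp*, which encodes haptoglobin, a binder of free haemoglobin, was at 169 and 165 CPM in the positive cells, 20.1 and 50.9 in Dcn-high and 44.4 and 58.2 in Dcn-zero fibroblasts (2.11, adjusted p = 9.67e-07; 1.65, adjusted p = 2.58e-07). Unlike *Rbp4* and *Wnt4*, it was about level in the positive cells of both libraries. *Smim41*, which encodes a small membrane protein, was at 344 and 216 against 144 and 99.0 CPM in Dcn-high fibroblasts (1.14, adjusted p = 4.61e-06).

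The positive cells with and without *Dcn* differed in which of these genes they held, values for which no test was run between them. Positive cells with 5 or more *Dcn* UMIs (62 and 100 cells) had 1878 and 588 CPM of *Rbp4*, and those with none (57 and 253 cells) had 524 and 296 CPM. With and without *Dcn*, *Adh7* stood at 293 and 59.1 against 19.8 and 2.47 CPM, and *Lamc3* at 340.0 and 93.9 against 88.9 and 32.9 CPM. *Wnt4* stood at 344 and 73.9 against 148 and 35.0 CPM, so that all 4 genes were higher with *Dcn* in both libraries. *Hp* ran the other way, at 65.3 and 76.2 against 372 and 206 CPM. *Rbp4* and *Ptch1* were nonetheless higher in positive cells than in other fibroblasts at either level of *Dcn*. *Rbp4* was higher by 2.15 on the log2 scale with 5 or more *Dcn* UMIs (adjusted p = 1.96e-08) and by 3.96 with none (adjusted p = 4.34e-13), and *Ptch1* was higher by 1.71 and 1.37 (adjusted p = 1.80e-05 and 1.06e-04). *Hp* passed with no *Dcn* (2.25, adjusted p = 6.59e-07) and not with 5 or more (0.89, adjusted p = 0.307). *Foxf1* passed in both matched comparisons (1.002 and 1.21, adjusted p = 0.0398 and 0.0106). Matching by *Dcn* left 70 genes higher and 36 lower in the cells with 5 or more UMIs, and 224 higher and 94 lower in those with none. Matching also left fewer cells, and how much of a lost call came with that was not tested.

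**Figure D3:**
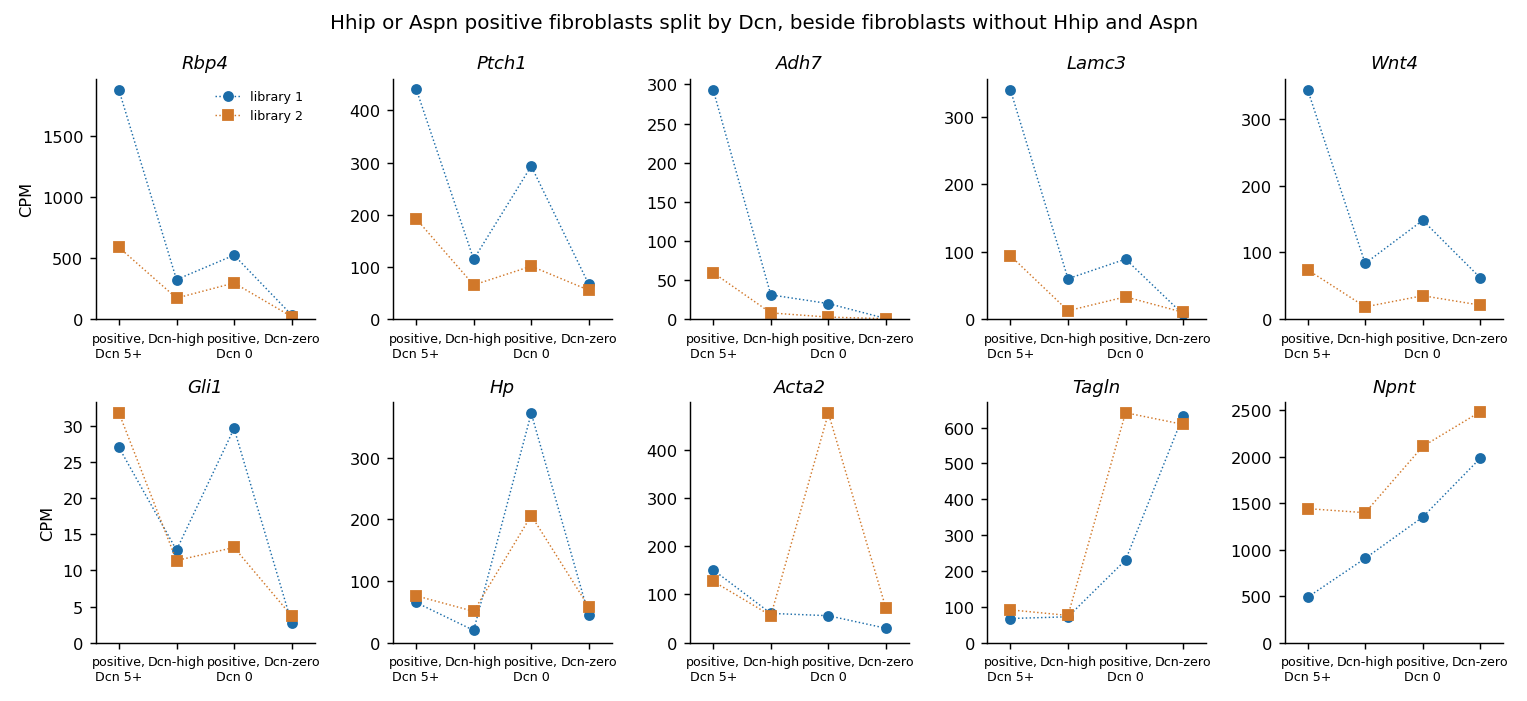
Summed levels (CPM, vertical axes) of 10 genes in positive cells with 5 or more *Dcn* UMIs, Dcn-high fibroblasts, positive cells with 0 *Dcn* UMIs and Dcn-zero fibroblasts (horizontal axes), with 1 point per library joined by dotted lines. *Rbp4*, *Adh7*, *Lamc3* and *Wnt4* were highest in positive cells with *Dcn*, and *Hp* in those without, where *Acta2* was at 56.0 and 476 CPM in the 2 libraries.

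The 10 genes with the largest fall from the Dcn-high fibroblasts were *Gabra3*, *Sema3d*, *Fxyd6*, *Igfbp5*, *Ildr2*, *Mmp3*, *Gm12840*, *Ppp1r3a*, *Pdgfrl* and *Ptgs2*, with log2 fold changes from -1.90 to -1.17. *Fxyd6*, a regulator of the sodium pump, was at 96.2 and 86.3 CPM in the positive cells, 311 and 271 CPM in Dcn-high and 29.1 and 25.2 CPM in Dcn-zero fibroblasts (-1.71, SE 0.11, adjusted p = 9.74e-09). *Mmp3*, the gene of stromelysin, which degrades matrix, was at 280.1 and 403 CPM in positive, 1025 and 946 CPM in Dcn-high and 200.3 and 135 CPM in Dcn-zero cells (-1.51, adjusted p = 3.34e-06). The complement gene *C3* was at 572 and 916 CPM in positive, 1157 and 1508 CPM in Dcn-high and 392 and 594 CPM in Dcn-zero cells (-0.90, adjusted p = 3.11e-05). All 3 lay between the 2 groups in both libraries. They were also lower among cells matched for 5 or more *Dcn* UMIs (*Mmp3* -1.25, *C3* -0.86, *Fxyd6* -0.95; adjusted p = 1.54e-04, 1.12e-04 and 1.12e-04). With that matching, *Gabra3* (-0.79), *Ildr2* (-0.62), *Pdgfrl* (-0.69) and *Ptgs2* (-0.17) were no longer past the threshold, and *Sema3d*, *Igfbp5*, *Gm12840* and *Ppp1r3a* were.

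Against the Dcn-zero fibroblasts, the positive cells had more of the adventitial list and less of the alveolar list. Of 19 adventitial genes tested, 17 were higher and 0 lower (median 1.11 beside -0.02). Of 20 alveolar genes, 0 were higher and 16 lower (median -0.64). These groups differ in *Dcn* by their definition, and among cells matched for 0 *Dcn* UMIs 9 of the 17 and 8 of the 16 calls were kept. The adventitial calls not kept were *Ly6a*, *Cd34*, *Serpinf1*, *Clec3b*, *C3*, *Igfbp6*, *Mmp3* and *Lum*. *Col14a1*, a collagen of fibril surfaces, was at 225 and 127 CPM in the positive cells, 187 and 217 CPM in Dcn-high and 30.003 and 28.0 CPM in Dcn-zero fibroblasts (2.49, SE 0.16, adjusted p = 8.99e-10). *Igfbp4*, a binder of insulin-like growth factors, was at 739.9 and 306 CPM in positive, 633 and 401 CPM in Dcn-high and 87.8 and 61.9 CPM in Dcn-zero cells (2.69, adjusted p = 8.23e-11). *Cygb*, a globin of fibroblasts, was at 369 and 323 against 52.6 and 80.2 CPM (2.37, adjusted p = 4.77e-10), and *Serpinf1*, a secreted inhibitor of vessel growth, was at 70.8 and 19.6 against 3.84 and 3.26 CPM (3.29, adjusted p = 2.61e-08). In both libraries these 4 genes were above the Dcn-zero level. The first 3 remained past the threshold among the matched cells, and *Serpinf1* did not (1.43, adjusted p = 0.126). Against the Dcn-high fibroblasts, 1 adventitial gene was higher, *Adh7*, and 2 were lower, *C3* and *Mmp3* (median -0.18).

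*Slc7a10*, an amino acid transporter of the alveolar list, was at 40.2 and 40.7 CPM in the positive cells, 240.2 and 133 CPM in Dcn-zero and 19.7 and 16.6 CPM in Dcn-high fibroblasts (-2.00, adjusted p = 4.19e-09; against Dcn-high 1.24, adjusted p = 4.27e-04). The second difference turned to -0.70 (adjusted p = 0.595) when only cells with 5 or more *Dcn* UMIs were compared. *Tcf21*, a transcription factor of lipid-holding lung fibroblasts, was at 652 and 536 CPM in positive, 1062 and 886 CPM in Dcn-zero and 386 and 257 CPM in Dcn-high cells (-0.71, adjusted p = 1.09e-04; against Dcn-high 0.87, adjusted p = 7.84e-05). Among cells with 0 *Dcn* UMIs, *Tcf21* was also lower than in Dcn-zero fibroblasts (-0.55, adjusted p = 0.00441). Among cells with 5 or more, it was also higher than in Dcn-high fibroblasts (0.68, adjusted p = 0.0021). *Ces1d*, a lipid-cleaving esterase, was at 199 and 327 against 569.7 and 544 CPM in Dcn-zero fibroblasts (-1.07, adjusted p = 4.93e-06). *Npnt* was at 889 and 1897 against 1983 and 2483 CPM (-0.74, adjusted p = 4.17e-04, -1.16 in library 1 alone and -0.39 in library 2 alone). *Wnt2*, a Wnt ligand, was at 117 and 70.3 against 279 and 133 CPM (-1.06, adjusted p = 6.60e-07). *Npnt* was not past the threshold among cells matched for 0 *Dcn* UMIs (-0.42, adjusted p = 0.201). Of the 20 alveolar genes, 5 (*Ces1d*, *Slc7a10*, *Tcf21*, *Fgfr4* and *Pdzd2*) were higher than in the Dcn-high fibroblasts and 0 lower (median 0.26 beside 0.00). *Ces1d* was 1 of them (0.60, adjusted p = 0.0153). Matched for *Dcn*, *Tcf21* alone of the 5 kept its call, and *Ces1d* (-0.16), *Slc7a10* and *Fgfr4* turned in sign without passing the test. At 3 UMIs of *Hhip* and *Aspn* 1 of the 5 was kept, and DESeq2 kept 4. The summed alveolar list was at 14202 and 16744 CPM in positive, 14683 and 13849 CPM in Dcn-high and 22864 and 21639.8 CPM in Dcn-zero cells, with *Inmt* the most abundant. By this sum the positive cells lay between the groups in library 2 and below both in library 1.

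**Figure D4:**
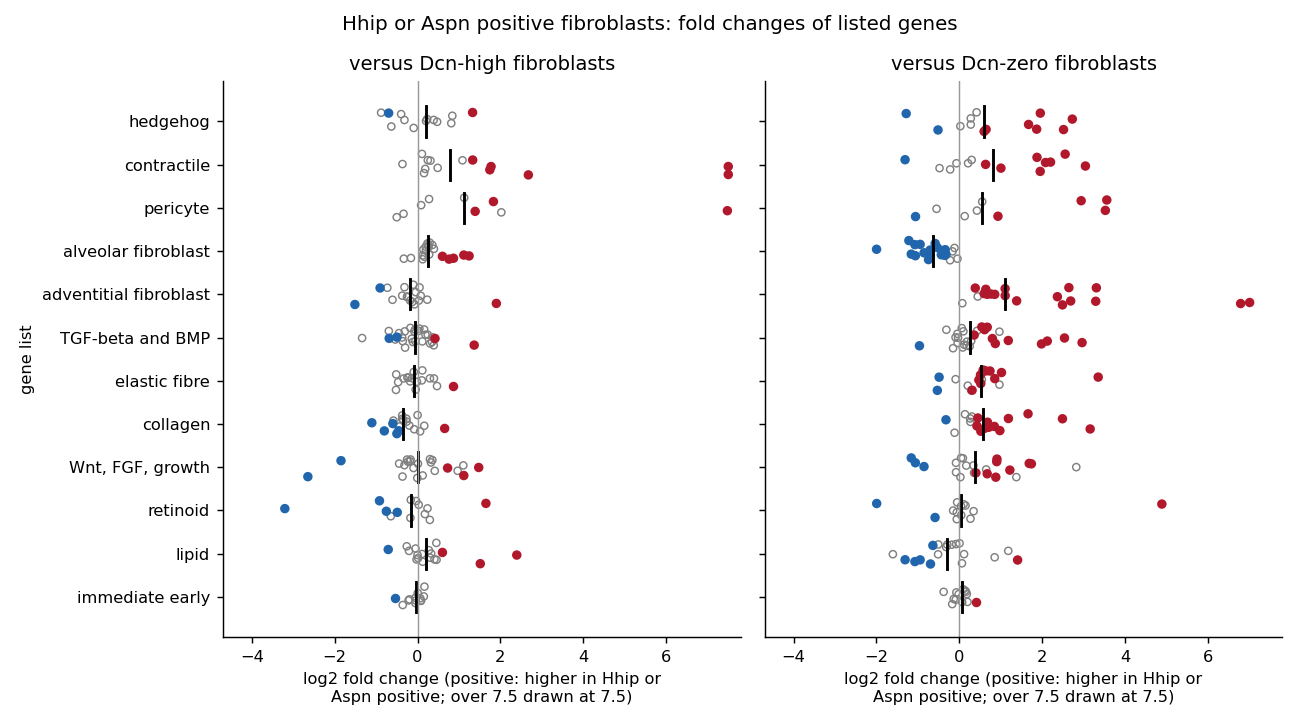
Log2 fold changes (horizontal axes) of the genes of 12 lists (vertical axis) in *Hhip* or *Aspn* positive fibroblasts against Dcn-high and against Dcn-zero fibroblasts, with filled points for genes at an adjusted p under 0.05, open points for the others and a bar at each list's median. The adventitial median was -0.18 against Dcn-high and 1.11 against Dcn-zero fibroblasts, and the alveolar median 0.26 and -0.64.

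The 10 genes with the largest rise over the Dcn-zero fibroblasts were *Rbp4*, *Fgl2*, *Lamc3*, *Abcc9*, *Fndc1*, *Kcnj8*, *Igfbp4*, *Gdf10*, *Smoc2* and *Col14a1*, with log2 fold changes from 4.89 to 2.49. *Abcc9* and *Kcnj8* encode the 2 kinds of subunit of a potassium channel known from pericytes. *Abcc9* was at 99.4 and 62.8 CPM in positive, 55.9 and 61.5 CPM in Dcn-high and 4.77 and 7.75 CPM in Dcn-zero cells (3.53, adjusted p = 5.06e-10). *Kcnj8* was at 144 and 62.4 CPM in positive, 77.6 and 82.2 CPM in Dcn-high and 8.47 and 13.9 CPM in Dcn-zero cells (2.94, adjusted p = 8.98e-08). Both were thus shared with the Dcn-high fibroblasts, and in library 2 the levels of *Kcnj8* were higher there. Of the pericyte list, *Rgs5* was at 0 and 0.189 CPM, *Notch3* at 1.06 and 2.45 CPM and *Higd1b* at 1.06 and 0.566 CPM in the positive cells. Of 13 pericyte genes, 9 were tested, 4 of them higher (*Pdgfrb*, *Kcnj8*, *Abcc9* and *Lamc3*) and *Gucy1a1* lower than in Dcn-zero fibroblasts (median 0.55 beside -0.02). Against Dcn-high fibroblasts 3 were higher (*Gucy1a1*, *Lamc3* and *Mcam*) and 0 lower (median 1.13 beside 0.00). The list was thus mixed, with some genes near 0 in the positive cells and 3 among those with the largest rise. These 3 (*Lamc3*, *Abcc9* and *Kcnj8*) kept their calls against Dcn-zero fibroblasts when matched for *Dcn*, and *Pdgfrb* and *Gucy1a1* did not. Against Dcn-high fibroblasts *Lamc3* alone was kept, and *Mcam* was not tested when matched. With DESeq2 *Gucy1a1* alone was kept there. The summed pericyte list stood at 560.2 and 254 CPM in positive cells, 264 and 214 in Dcn-high and 151 and 114 in Dcn-zero fibroblasts, with *Lamc3* the most abundant.

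The 10 genes with the largest fall from the Dcn-zero fibroblasts were *Hbb-bs*, *Bmper*, *Hopx*, *Slc7a10*, *Colq*, *Fabp3*, *Cdkn2c*, *Fibin*, *Gm14964* and *Mapt*. Apart from *Hbb-bs* their log2 fold changes ran from -2.12 to -1.44. *Hbb-bs*, a haemoglobin gene, came first through few cells. It was at 0 and 0.566 CPM in the positive cells and 57.2 and 215 CPM in Dcn-zero fibroblasts, where 1 cell held 67.5% and 99.2% of the UMIs of libraries 1 and 2. *Bmper*, a modulator of bone morphogenetic proteins, was at 8.46 and 17.2 CPM in the positive cells, 5.92 and 7.65 in Dcn-high and 60.7 and 66.0 in Dcn-zero fibroblasts (-2.12, SE 0.17, adjusted p = 2.15e-08). *Hopx*, a homeodomain cofactor, was at 10.6 and 28.3 CPM in positive, 11.2 and 16.04 CPM in Dcn-high and 78.7 and 104 CPM in Dcn-zero cells (-2.06, adjusted p = 7.85e-09). Both genes were low in the positive and the Dcn-high cells of each library.

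Of 18 collagen genes tested, 1 was higher and 5 (*Col3a1*, *Col4a5*, *Col4a6*, *Col5a2* and *Col15a1*) lower than in Dcn-high fibroblasts (median -0.36). Of the 18, 12 were higher and *Col13a1* lower than in Dcn-zero fibroblasts (median 0.57). The all-gene shares were 1.18% higher and 1.25% lower in the first comparison, and 6.33% and 4.05% in the second. *Col3a1*, a fibrillar collagen, was at 1539 and 1627 CPM in positive cells, 1803 and 2574 CPM in Dcn-high and 859.7 and 750.1 CPM in Dcn-zero fibroblasts (-0.50, adjusted p = 0.032, -0.23 in library 1 alone; 0.98, adjusted p = 9.64e-06). The exception was *Col18a1*, a basement membrane collagen and the 1 higher than in Dcn-high fibroblasts, at 86.7 and 75.2 against 53.6 and 45.7 CPM (0.65, adjusted p = 0.00456). *Col15a1*, another collagen of basement membranes, was at 47.6 and 18.7 CPM in positive, 44.7 and 58.9 CPM in Dcn-high and 1.99 and 3.45 CPM in Dcn-zero cells (3.16, adjusted p = 7.29e-07). Its difference from the Dcn-high group (-1.10, adjusted p = 0.0407, 0.09 in library 1 alone) was that of library 2, and in library 1 it was not below the Dcn-high level. The minor fibrillar *Col5a2* was at 162 and 246 CPM in positive, 236 and 372 CPM in Dcn-high and 122 and 132 CPM in Dcn-zero cells (-0.60, adjusted p = 0.00473; 0.68, adjusted p = 2.93e-04, 0.40 in library 1 alone). Over all genes, matching for *Dcn* took the counts of higher and lower calls from 140 and 148 to 70 and 36 against Dcn-high fibroblasts. Against Dcn-zero fibroblasts the counts went from 751 and 480 to 224 and 94. Most collagen calls were also lost among the cells matched for *Dcn*. There, 0 of the 6 calls against Dcn-high fibroblasts were kept, with *Col18a1* at 0.55 (adjusted p = 0.158), *Col3a1* at -0.20, *Col5a2* at -0.29 and *Col15a1* turned from -1.10 to 0.12. Against Dcn-zero fibroblasts 4 of the 12 higher calls were kept (*Col3a1*, *Col4a5*, *Col4a6* and *Col14a1*), and *Col15a1* (0.58, adjusted p = 0.83) and *Col5a2* (0.49, adjusted p = 0.14) were among the 8 that were not. DESeq2 kept 3 of the 6 calls against Dcn-high and 11 of the 13 against Dcn-zero fibroblasts, and the limit to cells with 5000 to 15000 UMIs 2 and 7.

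Of 17 elastic fibre genes tested, 1 was higher than in Dcn-high fibroblasts and 0 lower (median -0.09). Of the 17, 10 were higher and 2, *Mfap4* and *Lox*, lower than in Dcn-zero fibroblasts (median 0.52), where 6.33% and 4.05% of all genes were. Against Dcn-high fibroblasts 1.18% of all genes were higher and 1.25% lower. The 1 gene was *Fbln5*, which tethers elastin to its scaffold, at 192 and 129.9 CPM in the positive cells, 97.3 and 70.9 CPM in Dcn-high and 122 and 104 CPM in Dcn-zero fibroblasts (0.87, SE 0.12, adjusted p = 1.52e-04). Its difference from the Dcn-high group was past the threshold in 8 of 8 alternatives with the block. It was also called against the Dcn-zero group, where the call was lost in 4 of 8, among them DESeq2 and the matching for *Dcn*. The fibulin gene *Fbln2* was at 62.4 and 33.4 against 3.24 and 4.56 CPM in Dcn-zero fibroblasts (3.35, adjusted p = 7.85e-09) and the fibrillin gene *Fbn1* at 368 and 335 against 209 and 209.7 CPM (0.74, adjusted p = 2.07e-05). The microfibril gene *Mfap4* was lower, at 1672 and 1698 against 2745 and 2201 CPM (-0.53, adjusted p = 0.00207). Among cells matched for 0 *Dcn* UMIs, 5 of the 10 higher and 0 of the 2 lower calls were kept, and *Fbln2* (1.12, adjusted p = 0.21) and *Mfap4* (-0.23, adjusted p = 0.299) were not past the threshold. Of the 12 calls against Dcn-zero fibroblasts, DESeq2 kept 7 and the limit to cells with 5000 to 15000 UMIs 5.

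Of the small leucine-rich proteoglycans, the family of *Aspn* and *Dcn*, 9 of 15 were tested. *Podn*, which encodes podocan, was at 40.2 and 51.3 against 90.4 and 109 CPM in Dcn-high fibroblasts (-1.15, adjusted p = 8.64e-06), the 1 lower with 0 higher (median -0.01). Over all genes, 1.25% were lower than in Dcn-high fibroblasts, and 6.33% higher and 4.05% lower than in the Dcn-zero group. Against the Dcn-zero group *Fmod*, *Lum* and *Podn* were higher and *Ogn* and *Prelp* lower (median 0.27). *Podn* was past the threshold against that group in 4 of 8 alternatives with the block, and matched for *Dcn* only *Prelp* of these 5 was. DESeq2 kept 3 of the 5. *Prelp*, a collagen anchor, was at 667 and 771 against 1024 and 1068 CPM (-0.53, adjusted p = 9.69e-04).

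Of 28 TGF-beta and BMP genes tested, *Ltbp2* and *Bmp4* were higher and *Pmepa1* and *Thbs1* lower than in Dcn-high fibroblasts (median -0.07). Of the 28, 11 were higher and *Ccn2* lower than in Dcn-zero fibroblasts (median 0.27). The shares over all genes were 1.18% higher and 1.25% lower in the first comparison, and 6.33% and 4.05% in the second. Matched for *Dcn*, *Ltbp2* and *Thbs1* of the first 4 were kept, and 8 of the 11 and *Ccn2*. *Ltbp2*, of the family that holds latent TGF-beta in the matrix, was at 83.5 and 44.3 CPM in positive cells, 22.0 and 20.1 CPM in Dcn-high and 6.71 and 12.02 CPM in Dcn-zero fibroblasts (1.37, adjusted p = 0.00854; 2.54, adjusted p = 5.48e-07). It was highest in the positive cells of both libraries, and its difference from Dcn-high fibroblasts was past the threshold in 6 of 8 alternatives with the block. *Tgfb3*, a TGF-beta ligand, was at 167 and 60.9 against 26.9 and 18.5 CPM in Dcn-zero fibroblasts (2.12, adjusted p = 1.56e-08) and at 111 and 77.2 CPM in Dcn-high fibroblasts. *Thbs1*, which can release latent TGF-beta, was at 987 and 1012 against 1577 and 1541 CPM in Dcn-high fibroblasts (-0.68, adjusted p = 5.57e-04). The matricellular *Ccn2* was at 211 and 799 against 624 and 1186 CPM in Dcn-zero fibroblasts (-0.96, adjusted p = 8.87e-05, -1.56 in library 1 alone and -0.57 in library 2 alone). Of the list's 4 calls against Dcn-high and 12 against Dcn-zero fibroblasts, DESeq2 kept 3 and 9, and the limit to cells with 5000 to 15000 UMIs 1 and 8.

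Of 22 Wnt, FGF and other growth factor genes tested, *Wnt4*, *Fgfr4* and *Hgf* were higher and *Rspo1* and *Fgf18* lower than in Dcn-high fibroblasts (median 0.00). Of these 22, 8 were higher and *Wnt2*, *Fgfr4* and *Vegfd* lower than in Dcn-zero fibroblasts (median 0.38). Beside these counts, 1.18% of all genes were higher and 1.25% lower against the Dcn-high group, and 6.33% and 4.05% against the Dcn-zero group. Matched for *Dcn*, *Wnt4* alone of the 5 calls against Dcn-high fibroblasts was kept, and against Dcn-zero fibroblasts 5 of the 8 higher and 2 of the 3 lower calls. Beside *Wnt4*, *Hgf*, a growth factor for epithelium, was at 88.8 and 113 against 56.2 and 66.4 CPM in Dcn-high fibroblasts (0.73, adjusted p = 0.00324, not past the threshold with DESeq2; matched for *Dcn* 0.71, adjusted p = 0.0712). The Wnt antagonist *Sfrp1* was at 145 and 156 against 36.9 and 51.0 CPM in Dcn-zero fibroblasts (1.74, adjusted p = 1.34e-09). For this list DESeq2 kept 2 of the 5 and 9 of the 11 calls, and the depth limits 2 and 8.

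Of 13 retinoid genes tested, *Rbp4* was the 1 higher than in either group. *Lrat*, *Dhrs3* and *Cyp26b1* were among those lower than in Dcn-high fibroblasts (median -0.16) and *Aldh1a1* and *Crabp1* lower than in Dcn-zero fibroblasts (median 0.04). As a count, 1 higher gene of 13 stood beside 1.18% of all genes against Dcn-high and 6.33% against Dcn-zero fibroblasts. Lower in these comparisons were 1.25% and 4.05% of all genes. *Lrat*, the enzyme that makes storable retinyl ester, was at 271 and 139.5 CPM in the positive cells, 456 and 279.5 CPM in Dcn-high and 292 and 106 CPM in Dcn-zero fibroblasts (-0.92, adjusted p = 1.87e-04; matched for *Dcn* -0.55, adjusted p = 0.216). The retinal reductase gene *Dhrs3* was at 78.2 and 63.7 against 147 and 93.2 CPM in Dcn-high fibroblasts (-0.75, adjusted p = 0.00191), and the retinoic acid synthase gene *Aldh1a1* was at 435 and 1374 against 772 and 1851 CPM in Dcn-zero fibroblasts (-0.58, adjusted p = 0.00319). Matched for *Dcn*, *Dhrs3* was about as low (-0.69, adjusted p = 0.0516) and *Aldh1a1* less so (-0.38, adjusted p = 0.129), and neither was past the threshold. The positive cells thus combined the highest *Rbp4* of the 3 groups with less *Lrat* than Dcn-high fibroblasts in both libraries.

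Of 18 lipid genes tested, *Ces1d*, *Fabp4* and *Fabp5* were higher and *Lpl* lower than in Dcn-high fibroblasts (median 0.20). *Fabp5* had more than 50% of the positive cells' UMIs of a library in 1 cell. Its call was lost without the cells holding more than 5 *Sftpc* UMIs. Against Dcn-zero fibroblasts *Lpl* was higher and *Plin2*, *Cd36*, *Ces1d*, *G0s2* and *Pnpla2* lower (median -0.30). All-gene shares were 1.18% higher and 1.25% lower against Dcn-high, and 6.33% and 4.05% against Dcn-zero fibroblasts. The 1 higher call of 18 against the latter was thus near its share. Matched for *Dcn*, 0 of the 4 calls against Dcn-high fibroblasts were kept, and *Lpl*, *Ces1d* and *G0s2* of the 6 against Dcn-zero fibroblasts. *Plin2*, which coats lipid droplets, was at 89.8 and 155 against 212 and 184 CPM in Dcn-zero fibroblasts (-0.64, adjusted p = 0.00607), where its log2 ratio was -1.23 and -0.25 in library 1 alone and library 2 alone. The lipoprotein lipase gene *Lpl* was at 81.4 and 79.4 CPM in positive, 118 and 139 CPM in Dcn-high and 38.6 and 24.6 CPM in Dcn-zero cells (-0.71, adjusted p = 0.0104; 1.41, adjusted p = 1.43e-06) and its level lay between the groups. The call against Dcn-high fibroblasts was past the threshold in 4 of 8 alternatives with the block, and not with DESeq2 or when matched for *Dcn* (-0.35, adjusted p = 0.678). *Plin2* was not past it when matched for *Dcn* (-0.52, adjusted p = 0.0969). With DESeq2, 1 of the 4 and 4 of the 6 calls were kept, and in cells with 5000 to 15000 UMIs 0 and 3.

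Of 13 immediate early genes, which rise when tissue is digested, 0 were higher and 1 lower than in Dcn-high fibroblasts (median -0.04). Against Dcn-zero fibroblasts 1 was higher and 0 lower (median 0.07). Over all genes, 1.25% were lower in the first comparison and 6.33% higher in the second, so the 1 higher gene of 13 was near its share. The 1 gene was *Nr4a1* in both (-0.54, adjusted p = 0.00479; against Dcn-zero 0.41, adjusted p = 0.0135, 0.21 in library 1 alone). Neither call was kept when matched for *Dcn* (-0.34 and 0.27) or in cells with 5000 to 15000 UMIs. The summed list was at 27858 and 22307 CPM in positive cells against 28799.5 and 22268 CPM in Dcn-high and 31343 and 21001 CPM in Dcn-zero fibroblasts, with *Fos* the most abundant.

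Most *Sftpc* transcripts came from few positive cells. *Sftpc*, the surfactant gene of alveolar type II cells, was at 3362 and 255 CPM in the positive cells of libraries 1 and 2, 373 and 115 CPM in Dcn-high and 2934 and 609.6 CPM in Dcn-zero fibroblasts (2.22, adjusted p = 4.27e-05, 1.14 in library 2 alone). In library 1, 1 cell held 2974 of the 3181 UMIs. In library 2, 1 cell held 924 of 1353, and 2 and 5 positive cells had more than 5 UMIs. With all such cells left out of every group, *Sftpb*, another surfactant gene, was not past the threshold (0.22, adjusted p = 0.936; 1.75 with them, 2.28 and 0.99 in library 1 alone and library 2 alone). *Lyz2*, a lysozyme gene of macrophages and type II cells, turned from 1.501 to -0.62 (adjusted p = 0.329). Against Dcn-zero fibroblasts *Sftpb* was lower with them (-0.70, adjusted p = 0.0216, -0.16 in library 1 alone and -1.23 in library 2 alone) and not past the threshold without (-0.59, adjusted p = 0.329).

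Of the 140 genes higher than in Dcn-high fibroblasts, 14 had more than 50% of the positive cells' UMIs of a library in 1 cell, and of the 751 higher than in Dcn-zero fibroblasts, 3 did. Without the *Sftpc* cells 104 genes were higher and 114 lower than in Dcn-high fibroblasts. Of 5 epithelial genes, 4 were tested, 2 of them higher and 0 lower than in Dcn-high fibroblasts (summed 3535 and 302 CPM, chiefly *Sftpc*). Of 5 immune genes tested, *Lyz2* was the 1 higher (summed 561 and 87.5 CPM). Of 5 endothelial genes, 3 were tested and 0 called by edgeR (summed 34.9 and 25.3 CPM, chiefly *Ramp2*). All 4 mesothelial and all 3 chondrocyte genes had 0 UMIs in the positive cells.

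The positive cells chosen by *Hhip* alone (98 and 302) and by *Aspn* alone (20 and 89) were compared with each other. Of 11261 genes tested, 23 (0.204%) were higher and 18 (0.16%) lower in the *Hhip* cells. Without the library as a block edgeR called 0, with 202 at an unadjusted p under 0.05, and DESeq2 was not run for this comparison. The genes of the hedgehog list did not pass in either direction (0 of 13 tested, median 0.19 beside 0.04). *Ptch1* was at 334 and 124 CPM in *Hhip* and 266 and 94.9 CPM in *Aspn* cells (0.49, adjusted p = 0.807) and *Rbp4* at 1194 and 356 against 897 and 362 CPM (0.26, adjusted p = 0.895). Both of these genes were thus above the Dcn-high level in either kind of cell in both libraries. *Lrat* was higher in the *Hhip* cells, at 317 and 169 against 97.7 and 60.9 CPM (1.52, SE 0.22, adjusted p = 2.43e-04), as was *Sfrp1*, at 186 and 166 against 71.1 and 83.2 CPM (1.16, SE 0.21, adjusted p = 0.00427). The immediate early gene *Nr4a1* was at 724 and 345 against 559.6 and 163 CPM (0.85, adjusted p = 0.00427), and its log2 ratio was 0.37 and 1.08 in library 1 alone and library 2 alone.

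Of 16 contractile genes tested, 7 were higher in the *Aspn* cells and 0 in the *Hhip* cells (median -1.496). This count rested largely on library 2. The summed list was at 1741 CPM in *Hhip* and 1892 CPM in *Aspn* cells of library 1, and at 2411 and 5234 CPM in library 2. In library 1, *Actg2*, *Actc1* and *Myh11* had 0 UMIs in the *Aspn* cells, and *Des* was at 26.6 CPM in both kinds of cell. *Acta2* was at 113 and 169 CPM in *Hhip* and 258 and 995 CPM in *Aspn* cells (-2.30, SE 0.24, adjusted p = 6.41e-07). *Tagln* was at 97.9 and 281 against 329 and 1037 CPM (-1.88, adjusted p = 2.03e-05) and *Tpm2* at 78.0 and 151 against 151 and 409 CPM (-1.38, adjusted p = 1.38e-05). The direction was the same in both libraries, and *Acta2* came to -1.18 and -2.55 on the log2 scale in library 1 alone and library 2 alone. Without the cells that held *Myh11*, *Cnn1*, *Rgs5*, *Cspg4* or *Notch3*, these 3 were not past the threshold (-0.90, -0.83 and -0.17, adjusted p = 0.167, 0.0668 and 0.973). None of the 7 calls was kept there, with 4 of the genes tested. *Myh11* could not be kept, since every cell that held it was left out. *Ccn2* was at 151 and 568 in *Hhip* and 604 and 1673 CPM in *Aspn* cells (-1.66, SE 0.16, adjusted p = 4.76e-07). *Igfbp3*, a binder of insulin-like growth factors, was at 211 and 178 against 737 and 356 CPM (-1.23, SE 0.15, adjusted p = 2.03e-05). Both kept their calls without those cells (-1.65 and -1.25, adjusted p = 1.33e-07 and 1.06e-05). The largest rises in the *Hhip* cells were those of *Cd74*, *Sftpa1*, *Sftpc* and *Lyz2*, which were concentrated in few cells. In library 1, 1 cell held 59.0% of the positive cells' *Cd74* UMIs. None of the 4 was past the threshold in cells with 5000 to 15000 UMIs.

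**Figure D5:**
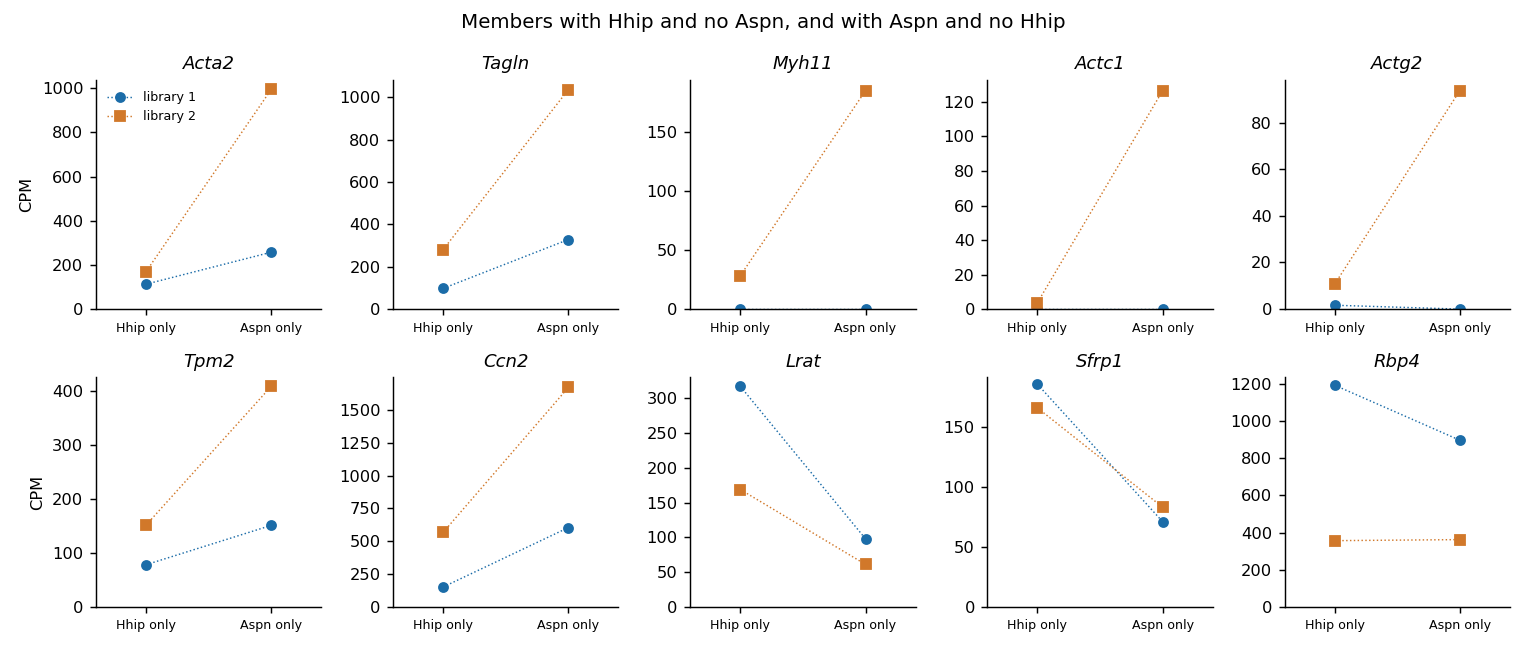
Summed levels (CPM, vertical axes) of 10 genes in positive cells with *Hhip* and no *Aspn* and with *Aspn* and no *Hhip* (horizontal axes), with 1 point per library joined by dotted lines. *Acta2* stood at 113 and 169 CPM in *Hhip* and 258 and 995 CPM in *Aspn* cells of libraries 1 and 2, and *Lrat* at 317 and 169 against 97.7 and 60.9 CPM.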

How the data were processed

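The UMI counts were those deposited by the authors, whose processing notes name Cell Ranger 5.0.1 and mm10. Cells needed at least 200 genes and at most 10% mitochondrial UMIs. No doublets were called or removed, but the rule drops cells with UMIs of *Cdh5*, *Pecam1*, *Epcam* or *Ptprc*. Counts were summed by library and group (Python 3.11.15, pandas 2.3.3, numpy 2.4.6, scipy 1.17.1). They were tested with edgeR 4.0.16 in R 4.3.3 (filterByExpr, TMM, quasi-likelihood, library as a block), with Benjamini-Hochberg adjusted p-values, and with DESeq2 1.42.0. Log2 ratios of 1 library alone used CPM plus 1. Intervals are 95% Clopper-Pearson. The 11 genes of the rule were left out of all counts. The code was tested on simulated data.

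Named genes were the markers, 2 to 6 genes of each list and, per comparison and direction, up to 10 with the largest fold change among called genes with 1 direction in both libraries and at least 50 CPM in the higher group. Genes named to spell out a small count, and the 6 smooth muscle and 7 *Sftpc* cells, were picked after their values were seen. The members and lists were chosen with earlier results of these data known. Some genes of the lists are not reported here.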

Additional observations from a re-analysis of the deposited data

How the results depend on the processing

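The count of genes against Dcn-high fibroblasts moved under the most alternatives. From 288 it went to 444 with no filter on low counts (201 higher and 243 lower), 134 with at least 3 UMIs of *Hhip* and *Aspn* (74 and 60), 523 with at least 1 (233 and 290), 124 in cells with 5000 to 15000 UMIs (58 and 66), 106 with cells matched for *Dcn* (70 and 36) and 148 with DESeq2 (68 and 80). Against Dcn-zero fibroblasts 1231 went to 577 in cells with 5000 to 15000 UMIs (390 and 187), 318 when matched for *Dcn* (224 and 94) and 731 with DESeq2 (498 and 233). Without the library as a block, all 3 counts were 0. Matching for *Dcn* and the depth limits leave fewer cells; otherwise the cause was not tested. Between *Hhip* and *Aspn* cells, 41 went to 26 without cells holding smooth muscle or pericyte transcripts. This alternative, the 1 without *Sftpc* cells and the shares by library were chosen after seeing the data. The share of positive cells, 3.23% over both libraries, was 1.43% at a threshold of 3 UMIs and 8.70% at 1, as the rule makes it, and 1.56% to 4.85% without 1 library.

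Of 42 genes with values called against Dcn-high fibroblasts, 42 kept direction and call with no filter, 40 without smooth muscle and pericyte transcripts, 39 at 1 UMI, 37 without *Sftpc* cells, 33 at 3 UMIs, 32 with DESeq2, 26 in cells with 5000 to 15000 UMIs and 18 when matched for *Dcn*. Of 59 called against Dcn-zero fibroblasts, 41 did when matched for *Dcn*, 50 of 58 tested in cells with 5000 to 15000 UMIs, and 55 or more otherwise. Without the block none did. Of 20 between *Hhip* and *Aspn* cells, 14 did in cells with 5000 to 15000 UMIs, where library 1 held 14 *Aspn* cells, and 12 without smooth muscle and pericyte transcripts. Library-alone values had no residual degrees of freedom and no test.

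Reversed against Dcn-high fibroblasts were *Slc7a10* (-0.70), *Ces1d* (-0.16), *Sftpc* (-0.84), *Sftpb* (-0.66), *Lyz2* (-1.09) and *Col15a1* (0.12) when matched for *Dcn*. *Sftpc* (-0.65), *Sftpb* (-0.61) and *Lyz2* (-0.72) also reversed in cells with 5000 to 15000 UMIs, *Lyz2* (-0.62) without *Sftpc* cells, and *Col15a1* (0.0875) in library 1 alone (-1.61 in library 2 alone). Of list genes named without a log2 fold change, *Gucy1a1*, *Fgfr4*, *Fabp4* and *Myh11* also changed sign when matched for *Dcn*. Against Dcn-zero fibroblasts *Sftpb* (0.28) reversed at 3 UMIs, and *Des* (0.24), not called in the report, when matched for *Dcn*. Between *Hhip* and *Aspn* cells *Sftpa1* (-0.0266) and *Sftpc* (-0.27) reversed in cells with 5000 to 15000 UMIs. None of these passed the test when reversed, and the cause was not tested.

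The main limits are the 2 libraries, with no stated number of mice, and a rule in UMIs that takes deeper cells. Cells with few UMIs can hold *Hhip* or *Aspn* and be counted among those without. Summed levels of a gene held by few cells, such as *Acta2* in library 2, describe those cells and not most positive cells. The 20 *Aspn* cells of library 1 are few, and their 0 values mean little. Depth also differs between the positive and Dcn-zero cells, and transcripts shared through the liquid between cells were not measured here.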
